A study of Homo sapiens with 6 samples.

Results

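The circRNAs described here are those with the lowest numbers in circBase, a public collection that gives each human circular RNA a 7-digit number. They were chosen by number alone, as array probes whose ID starts with hsa_circ_ and carries a circBase number below 2000. The rule left out 21 numbers, 7 of which had a probe on the array. This gave 478 probes for 478 different circRNAs, 1 probe each, numbered 5 to 1995, out of 35343 circBase probes and 175075 RNA probes. They are called early probes below. The 34858 circBase probes numbered 2000 or more are called later probes and served for comparison.

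RNA came from HGC-27, a long-established line of human gastric cancer cells. In the OMT group, 3 cultures were kept for 48 h in 2.64 mg/mL of oxymatrine (OMT), a plant alkaloid found in Sophora, and the control group was 3 untreated cultures. The series calls the 3 samples of each group biological replicates. Each culture was read on 1 single-colour Agilent array, and the number of arrays limits the precision.

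A circRNA forms by back-splicing, in which the spliceosome joins the end of an exon to the start of the same or an earlier exon, so that the RNA closes into a ring. The ring has no free ends and is therefore spared by exonucleases, which lets many circRNAs outlast the linear RNAs of the same gene. Because ring and linear RNA share exon sequence, the back-splice junction is the part that sets them apart. The tables used here give neither probe sequences nor host genes, so which of these probes cross a junction, and which genes they come from, is not stated below. For the same reason the epithelial, fibroblast, leukocyte and endothelial marker lists could not be read, and the gastric origin of the cells rests on the labels.

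Levels are log2 intensities. Arrays of one group held the same set of sorted values, while OMT and control arrays held different sets, with medians of 2.97 and 3.97. What OMT did and how each group was normalized thus cannot be told apart in levels as deposited. Most changes and calls are therefore given both for the deposited values and for values quantile-normalized across the 6 arrays. This joint normalization leaves the ranking of probes on each array as it was. Levels, correlations, matched differences and results by level, block of numbers or consecutive pair are mainly given after joint normalization alone. The median change of all RNA probes was -0.36 as deposited and 0.04 after joint normalization (log2, OMT minus control). A probe is called when limma's adjusted p (Benjamini-Hochberg over all 175075 RNA probes) was below 0.05. In RNA from whole cultures, fewer cells that hold an RNA and less of it per cell cannot be told apart.

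The early probes were mostly above background and lay in the upper part of the signal range. The DarkCorner control spots, which are dark by design, served as the floor. Above them stood 435, 436 and 430 early probes on the 3 OMT arrays and 442, 445 and 440 on the 3 control arrays. The shares were 90.7% ± 0.67 in OMT and 92.5% ± 0.53 in controls (SD, n = 3). Of the 478 probes, 403 (84.3%) were above the floor on all 6 arrays and 7 (1.46%) on none. For the later probes these shares were 81.2% and 3.004%. Both measures depend only on the order of signals within an array, so they are the same under either normalization.

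Ranked among all RNA probes of the same array, the median early probe sat at percentile 72.0, 72.7 and 72.8 on the OMT arrays. On the control arrays it sat at percentile 74.9, 74.8 and 74.5, so every control array was above every OMT array. The median later probe sat on average at percentile 71.3 ± 0.27 in OMT and 73.1 ± 0.05 in the control group (SD, n = 3). It thus stood slightly below the median early probe in both groups and was likewise lower on the OMT arrays.

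The joint-normalized median level of the early probes was 6.21 ± 0.05 in OMT and 6.50 ± 0.03 in controls, and that of the later probes 6.05 ± 0.03 and 6.28 ± 0.01 (SD, n = 3). Averaged over the 6 arrays, single early probes ranged from 0.93 to 12.96, and later ones reached 17.57. The brightness of different probes also depends on their sequences, so these levels do not rank amounts of RNA.

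**Figure D1:**
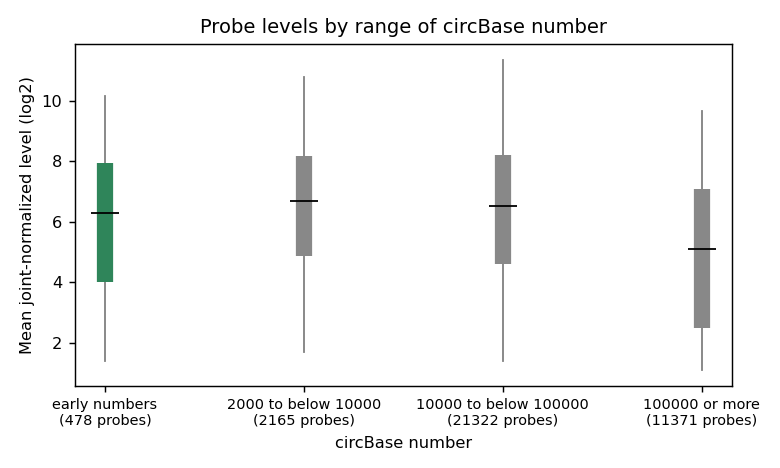
Joint-normalized levels (log2, mean of 6 arrays, vertical axis) of circBase probes in 4 ranges of circBase number (horizontal axis). Black bars are medians, thick bars run from the 25th to the 75th percentile and thin lines from the 5th to the 95th. The median is 6.30 for early numbers, 6.68 from 2000 to below 10000, 6.53 from 10000 to below 100000 and 5.10 for 100000 or more.

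The standing of the early probes depended on which later numbers they were set against. Probe IDs end in a pair of numbers that no source used here explains, and the next-to-last, from 0 to 16, goes with level and with change. Each early probe was therefore compared with later probes of the same next-to-last number, and the differences of medians were averaged with the early probes as weights. With this matching the early probes differed from the later ones by -0.06 ± 0.02 in OMT and 0.07 ± 0.04 in controls, a mean of 0.003 (log2, SD, n = 3 arrays). Without it the mean difference was 0.18. Against the 2165 later probes numbered below 10000 it was -0.40, and the difference lay below 0 in both groups, at -0.46 ± 0.04 in OMT and -0.34 ± 0.03 in controls. That comparison with nearby numbers was chosen after the data were seen. The 11371 probes numbered 100000 or more had the lowest median level of the 4 ranges (5.10), as the plot of levels by circBase number shows.

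Detection also depended on which later numbers were used. With the same matching, the share of probes above DarkCorner was higher among early than later probes by 2.30 ± 0.06 percentage points in OMT and 1.26 ± 0.72 in controls (SD, n = 3 arrays). The difference was above 0 on all 6 arrays, from 0.626 to 2.35 points. Against later numbers below 10000 it had the other sign, -2.72 ± 0.11 points in OMT and -3.12 ± 0.61 in controls. No p is given for these differences over the set.

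OMT-treated and control cultures differed at most early probes, and falls outnumbered rises under both normalizations. As deposited, 306 of the 478 early probes (64%) were called lower and 24 (5.02%) higher in OMT (limma, n = 3 per group). Over all RNA probes these shares were 38.4% and 7.89%, and over the later circBase probes they were 62.5% and 6.08%. After joint normalization, 164 early probes (34.3%) were called lower and 94 (19.7%) higher, against 18.7% and 20.6% of all RNA probes. Among later circBase probes the corresponding shares were 34.2% and 21.9%. In either direction, joint normalization left 54% of early, 56.1% of later and 39.4% of all RNA probes called. The early probes were thus called lower more often than RNA probes at large, in a share close to that of the other circBase probes. Without control replicate 2 the deposited values gave 15 rises in place of 24.

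Under both normalizations alike, 164 early probes were called lower and 24 higher. A further 132 were called lower as deposited only, and 60 were called higher after joint normalization only. For another 10 the calls were opposite, lower with the deposited values and higher with joint normalization, so their direction rests on the scaling. The remaining 88 were called under neither. These joint counts were not taken over the later probes or all RNA probes, so they do not show a trait of the early probes. The groups were without overlap, all OMT values on one side of all control values, for 383 early probes (80.1%) as deposited and 316 (66.1%) after joint normalization. Over all RNA probes these shares were 60.4% and 53.6%, and over the later circBase probes 78% and 69.3%.

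**Figure D2:**
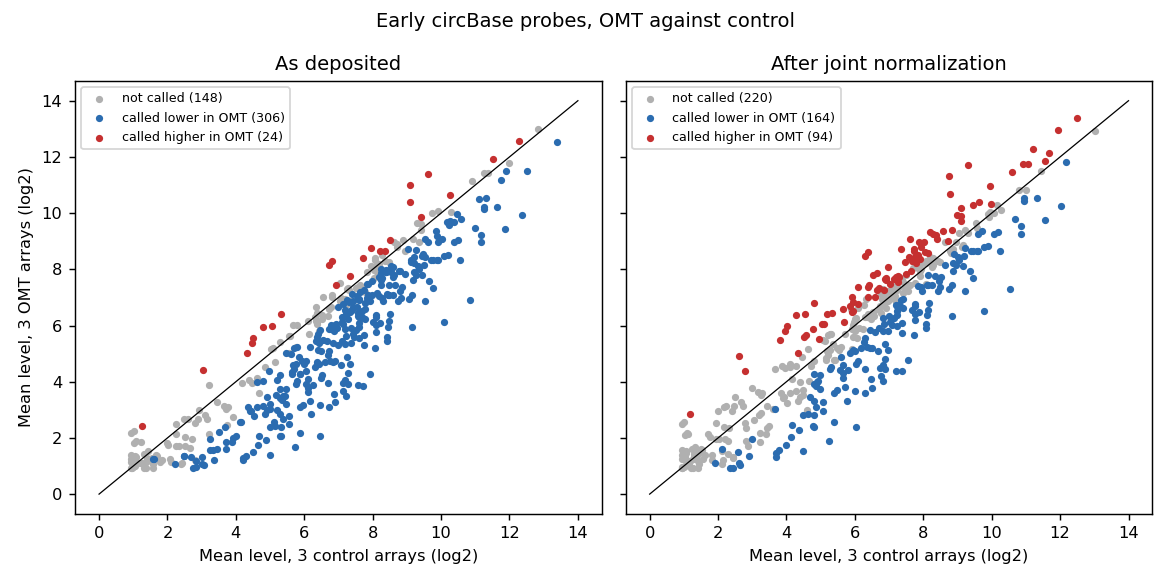
Mean level of each of the 478 early probes on the 3 control arrays (horizontal axis, log2) and the 3 OMT arrays (vertical axis, log2), as deposited (left) and after joint normalization (right). Points below the diagonal are lower in OMT, and colours mark the limma call. As deposited 306 probes are called lower and 24 higher, and after joint normalization 164 and 94.

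The change of the median early probe was -0.86 as deposited and -0.17 after joint normalization (log2), and that of the median later probe -0.88 and -0.15. After joint normalization, the range from the 25th to the 75th percentile ran from -0.89 to 0.42 for early and from -0.95 to 0.42 for later probes. The 5th and 95th percentiles lay at -2.21 and 1.12 for early and at -2.47 and 1.31 for later probes. Single changes ran from -3.63 to 2.56 among early probes and from -7.31 to 5.29 in the much larger later set. As the sets differ in size, these extremes do not compare their tails. Called changes of at least 2-fold after joint normalization were found for 95 early probes downward (19.9%) and 32 upward (6.69%). Over all RNA probes the shares were 12.9% and 11.9%, and over the later probes 21.8% and 8.67%. As deposited the counts were 213 downward (44.6%) and 10 upward (2.09%), against 27.3% and 3.73% of all RNA probes and 44.2% and 1.62% of later probes.

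At matched level and next-to-last number, the early minus later difference overlapped between OMT and control arrays. Probes were put in ranges of mean level 2 log2 units wide, and the early minus later difference of medians was averaged over 94 such combinations that hold all 478 early probes. It was -0.04, -0.05 and 0.03 on the OMT arrays and 0.03, 0.05 and -0.002 on the control arrays. The groups overlapped, and their means differed by -0.04 (OMT minus control, with SDs of 0.04 and 0.03). No test of this score is given, and the values do not show that early and later probes respond alike. With matching on the next-to-last number alone, the groups did not overlap. The differences were then -0.08, -0.05 and -0.06 on the OMT arrays and 0.10, 0.08 and 0.02 on the control arrays, and the means differed by -0.13.

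The largest falls left some signals at the floor and others well above it. These 8 probes had the largest joint-normalized falls among the 164 that were called lower and did not overlap under both normalizations. On hsa_circ_0001441_11_2005 the joint-normalized levels were 2.99, 3.10 and 1.13 in OMT and 6.32, 5.84 and 5.94 in controls. OMT replicate 3 stood at or below DarkCorner, and all 3 control arrays stood far above the OMT arrays. The change was -3.63 ± 0.58 (log2, SE, limma adjusted p 0.0053), or -4.39 as deposited. For hsa_circ_0001403_16_17 the levels were 1.54, 3.12 and 1.06 in OMT and 5.47, 5.22 and 5.03 in controls, with a change of -3.34 ± 0.56 (adjusted p 0.0065). Its OMT arrays scattered over about 2 log2 units, with replicate 3 below the floor, but none came near the controls. Values below DarkCorner have no order, so these falls were also taken with each array raised to at least that floor, a step added after the data were seen. They were then -3.48 for hsa_circ_0001441_11_2005 and -3.17 for hsa_circ_0001403_16_17, which came after the pair of falls described next.

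A pair of consecutive numbers, hsa_circ_0001016_16_2021 and hsa_circ_0001017_16_3008, fell with little scatter and far above background. The former read 6.49, 6.52 and 6.58 in OMT and 9.86, 9.76 and 9.68 in controls, with a change of -3.24 ± 0.08 (log2, SE, limma adjusted p 7.1e-05). The latter read 7.30, 7.14 and 7.41 in OMT and 10.65, 10.50 and 10.44 in controls, with a change of -3.25 ± 0.11 (adjusted p 8.6e-05). Within each group the arrays of either probe spread by far less than the gap between the groups. As deposited these changes were -3.94 and -3.92. The next number up, hsa_circ_0001018_3_20, was one of the 5 brightest early probes and did not share the fall: it read 13.40, 13.20 and 13.57 in OMT and 12.40, 12.50 and 12.54 in controls. Its change was 0.91 ± 0.12 after joint normalization (adjusted p 0.0026) and 0.14 as deposited (adjusted p 0.361).

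Of the other 4 large falls, 2 were detected on every array with room to spare and 2 came close to the floor in OMT. On hsa_circ_0001557_12_20 the levels were 4.87, 4.29 and 3.95 in OMT and 7.14, 7.44 and 7.52 in controls, with a change of -2.99 ± 0.26 (log2, SE, limma adjusted p 6.9e-04). On hsa_circ_0000701_16_15 they were 3.21, 4.56 and 4.25 in OMT and 6.94, 6.78 and 6.79 in controls, with a change of -2.83 ± 0.37 (adjusted p 0.0026). Both probes kept every OMT array above the floor and below every control array. The levels of hsa_circ_0001171_15_20 were 3.42, 1.45 and 2.82 in OMT and 5.27, 5.61 and 5.33 in controls, with a change of -2.84 ± 0.52 (adjusted p 0.0091). Those of hsa_circ_0000771_16_1034 were 1.04, 1.04 and 2.55 in OMT and 4.26, 4.57 and 4.61 in controls, with a change of -2.93 ± 0.46 (adjusted p 0.005). The last of these was above DarkCorner on 1 of 3 OMT arrays, so its OMT level is in part only a bound. Raised to the floor its fall was -2.74, which would put it below hsa_circ_0001324_16_2022 (-2.81) and outside the 8 largest. As deposited the changes of these 4 probes lay between -3.86 and -3.58.

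**Figure D3:**
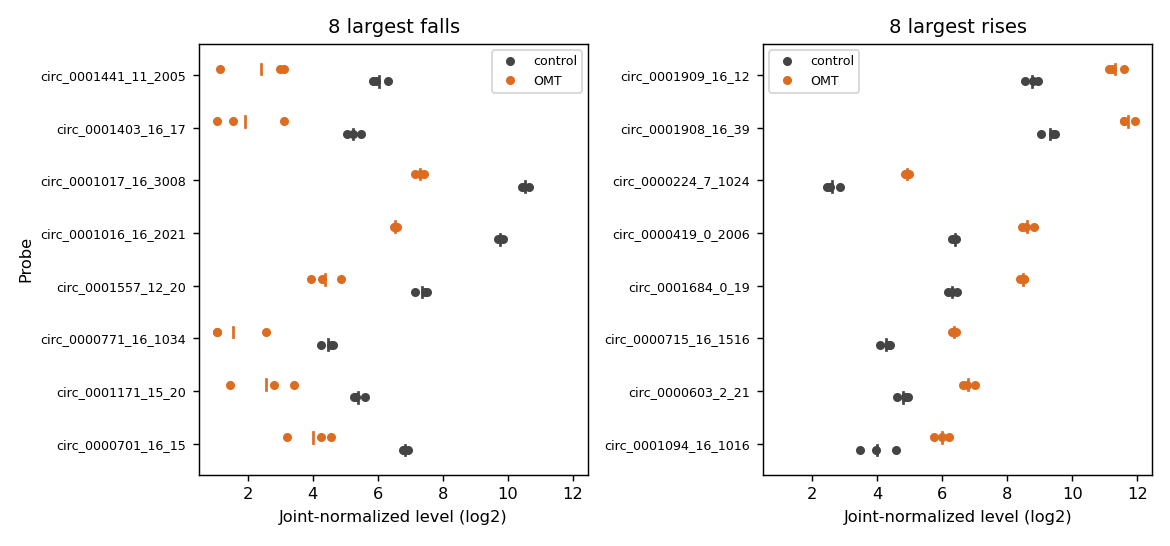
Joint-normalized level (log2, horizontal axis) on each array for the 8 early probes with the largest falls (left) and the 8 with the largest rises (right). Points are single arrays, 3 per group, and short bars are group means. No OMT point overlaps a control point of the same probe.

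The rises were smaller than the falls, and the 2 largest came from consecutive numbers. The 8 probes named here had the largest joint-normalized rises among the 24 that were called higher and did not overlap under both normalizations. On hsa_circ_0001909_16_12 the joint-normalized levels were 11.61, 11.23 and 11.15 in OMT and 8.54, 8.95 and 8.81 in controls, with a change of 2.56 ± 0.17 (log2, SE, limma adjusted p 3.4e-04). On hsa_circ_0001908_16_39 they were 11.92, 11.61 and 11.61 in OMT and 9.05, 9.47 and 9.40 in controls, with a change of 2.41 ± 0.16 (adjusted p 3.1e-04). Both signals were bright in every culture, and their groups lay over 2 log2 units apart after joint normalization. As deposited the changes were 1.93 and 1.78. The next probe in number, hsa_circ_0001910_16_2012, was dimmer, with a mean level of 4.22, and changed by 0.52 after joint normalization and -0.50 as deposited, with neither value called.

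Probes dimmer than hsa_circ_0001908_16_39 and hsa_circ_0001909_16_12 rose as well. The levels of hsa_circ_0000224_7_1024 were 4.99, 4.91 and 4.87 in OMT and 2.87, 2.45 and 2.54 in controls, with a change of 2.30 ± 0.13 (log2, SE, limma adjusted p 2.1e-04). On hsa_circ_0000419_0_2006 they were 8.46, 8.83 and 8.58 in OMT and 6.40, 6.32 and 6.44 in controls, with a change of 2.24 ± 0.12 (adjusted p 1.8e-04). On hsa_circ_0001684_0_19 they were 8.39, 8.51 and 8.52 in OMT and 6.17, 6.44 and 6.32 in controls, with a change of 2.17 ± 0.10 (adjusted p 1.4e-04). All 3 were above DarkCorner on all 6 arrays, and as deposited their changes were 1.38, 1.51 and 1.43.

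The remaining 3 rises were about 4-fold after joint normalization and about 2-fold as deposited. For hsa_circ_0000715_16_1516 the levels were 6.38, 6.30 and 6.42 in OMT and 4.34, 4.40 and 4.10 in controls, with a change of 2.09 ± 0.11 (log2, SE, limma adjusted p 1.6e-04) or 1.16 as deposited. For hsa_circ_0000603_2_21 they were 6.76, 7.01 and 6.64 in OMT and 4.94, 4.87 and 4.62 in controls, with a change of 1.99 ± 0.14 (adjusted p 3.7e-04) or 1.10 as deposited. These 2 kept tight groups, while the last of the 8 rises scattered among the controls. On hsa_circ_0001094_16_1016 the levels were 5.99, 5.76 and 6.20 in OMT and 4.58, 3.47 and 3.96 in controls, with a change of 1.98 ± 0.31 (adjusted p 0.005). Its deposited change of 1.03 (adjusted p 0.0435) lost its call without OMT replicate 1, 2 or 3 or without control replicate 2 or 3, at values of 0.76 to 1.15.

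The 5 brightest early probes were mixed in direction after joint normalization. The brightest of all, hsa_circ_0000142_0_5, read 12.95, 12.82 and 12.95 in OMT and 13.06, 13.02 and 12.95 in controls after joint normalization. Its change was -0.10 (limma 95% interval -0.30 to 0.09, adjusted p 0.366), but -0.87 as deposited (adjusted p 4.9e-04). Its direction was the same under both normalizations, while its call rests on the scaling. The next brightest, hsa_circ_0001018_3_20 (given above) and hsa_circ_0001434_2_22, were higher in OMT after joint normalization. The latter read 12.856, 13.005 and 12.963 in OMT and 11.903, 11.928 and 11.997 in controls. It changed by 1.00 ± 0.08 (SE, adjusted p 4.7e-04), or by 0.29 as deposited (adjusted p 0.0282), a call that was lost without OMT replicate 2 or 3 or any 1 control array, at values of 0.26 to 0.31.

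The other 2 of the 5 brightest also depended on the scaling. The probe hsa_circ_0000164_0_23 read 11.90, 11.77 and 11.81 in OMT and 12.11, 12.26 and 12.16 in controls. It fell by 0.35 on the log2 scale after joint normalization (limma adjusted p 0.0205) and by 1.01 as deposited. Its call was lost with centring on the 75th percentile (-0.21) and with joint normalization plus the replicate block (-0.35). Levels of hsa_circ_0001006_11_1018 were 12.02, 12.32 and 12.02 in OMT and 11.67, 11.71 and 11.61 in controls. It changed by 0.46 after joint normalization (adjusted p 0.0233) and by -0.20 as deposited (adjusted p 0.185, or -0.30 with a call without OMT replicate 2).

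Signals nearest to no change after joint normalization, among probes with a level of 8 or more, show how much the normalization decides. The levels of hsa_circ_0000320_2_31 were 10.79, 10.65 and 10.99 in OMT and 10.73, 10.88 and 10.81 in controls. The groups overlapped, with a change of 0.01 (limma 95% interval -0.28 to 0.29, adjusted p 0.969), yet the deposited change was -0.61 (adjusted p 0.0073). The other 2 of this kind, hsa_circ_0001959_0_28 and hsa_circ_0001470_0_14, changed by -0.03 and 0.04 after joint normalization. As deposited they were called at -0.64 and -0.58, the latter not without control replicate 1 (-0.54) or 2 (-0.58).

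At the edge of the numbering, the last 3 early and the first 3 later probes had joint-normalized changes on both sides of 0. The last 3 early probes were hsa_circ_0001987_0_32, hsa_circ_0001989_16_16 and hsa_circ_0001995_0_16, with joint-normalized changes of -0.28, 0.56 and 0.67 and deposited changes of -0.90, -0.30 and 0.01. The first 3 later probes were hsa_circ_0002002_0_21, hsa_circ_0002004_14_32 and hsa_circ_0002006_5_21, with joint-normalized changes of -0.08, 0.47 and 0.84 and deposited changes of -0.80, 0.12 and -0.12. So hsa_circ_0001989_16_16 and hsa_circ_0002006_5_21 changed sign with the scaling, and neither was called under either normalization. The joint-normalized OMT levels of hsa_circ_0001995_0_16 were 8.39, 8.57 and 8.42, against 7.83, 7.81 and 7.71 in controls, and it was the one probe of these 6 called after joint normalization. As deposited it was not called, while hsa_circ_0001987_0_32 (limma adjusted p 0.0054) and hsa_circ_0002002_0_21 (adjusted p 0.0041) were called lower. The later probe hsa_circ_0002004_14_32 stood above DarkCorner on 2 OMT arrays and 0 control arrays.

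A few early probes were above DarkCorner on all 3 arrays of one group and on 0 arrays of the other. These 6 were picked out after their values were seen, and each fold is a bound against the higher of the probe and DarkCorner on each array of the dim group. Above it on all 3 control arrays and on 0 OMT arrays were hsa_circ_0000301_14_29, hsa_circ_0000690_3_1053, hsa_circ_0001184_2_18, hsa_circ_0001301_11_12 and hsa_circ_0001864_14_24. The largest bound was that of hsa_circ_0001184_2_18, which was at least 4.38-fold lower in OMT as deposited and at least 2.85-fold lower after joint normalization. For the other 4 the bounds were 1.98 to 3.53 as deposited and 1.40 to 2.34 after joint normalization. In the other direction, hsa_circ_0000111_4_26 was above DarkCorner on all 3 OMT arrays and on 0 control arrays. It was at least 1.74-fold higher in OMT as deposited and at least 2.69-fold higher after joint normalization. No p is given for these 6, since detection on all arrays of one group and 0 of the other chose them. Such probes made up 1.05% (control only) and 0.209% (OMT only) of the early probes, against 1.57% and 0.301% of the later ones.

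The changes of the early probes went with the next-to-last number of the probe ID. Probes with 0 there had a median joint-normalized change of 0.11 (88 probes), and those with 1 to 4 had 0.28 (59 probes). The medians were -0.04 for 5 to 8 (75 probes), -0.15 for 9 to 12 (56 probes), -0.74 for 13 to 15 (72 probes) and -0.57 for 16 (128 probes). Later probes showed medians of 0.28, 0.14, -0.02, -0.27, -0.48 and -0.45 in the same 6 classes. After joint normalization, called rises outnumbered called falls by 30 to 11 among early probes with 0 and by 24 to 10 among those with 1 to 4. As deposited these classes had 6 rises and 48 falls, and 7 rises and 29 falls. For 13 to 15 the counts were 2 rises and 45 falls after joint normalization and 0 and 57 as deposited, and for 16 they were 15 and 61, and 7 and 87. Later probes leaned the same way. With 0 (4916 probes) they had 1912 rises and 768 falls after joint normalization and 537 and 2205 as deposited. For 1 to 4 (4203) these were 1384 and 866, and 375 and 2204. For 13 to 15 (5568) they were 711 and 2444, and 191 and 3991. For 16 (11369) they were 1768 and 4960, and 574 and 7701. In either direction, joint normalization left 46.6%, 57.6%, 65.3% and 59.4% of early probes in these 4 classes called, against 54.5%, 53.5%, 56.7% and 59.2% of later probes in the same classes. As deposited all 6 medians were below 0, from -1.58 for 13 to 15 up to -0.39 for 1 to 4, so the order of these extremes was kept while the sign of the low classes was not.

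Levels moved with the same number. The median level of early probes was 7.39 where the next-to-last number was 0 and 5.21 where it was 16. The median for 0 minus that for 16 was 2.74, 2.87 and 2.64 on the OMT arrays and 1.54, 1.47 and 1.48 on the control arrays. This gap was thus wider on every OMT array, by 1.25 in the mean. Among later probes the gap measured 1.99 ± 0.04 on OMT and 1.02 ± 0.01 on control arrays (SD, n = 3), wider in OMT by 0.96. At levels from 6 up to 8, the median change of early probes was 0.43 for 0 (25 probes) and -0.38 for 16 (36 probes), and for later probes 0.39 and -0.40. Across the 478 early probes Pearson's r between next-to-last number and change was -0.34 and Spearman's rho -0.34, against -0.29 for both in later probes. These points share arrays and probe design, so the coefficients are descriptions.

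**Figure D4:**
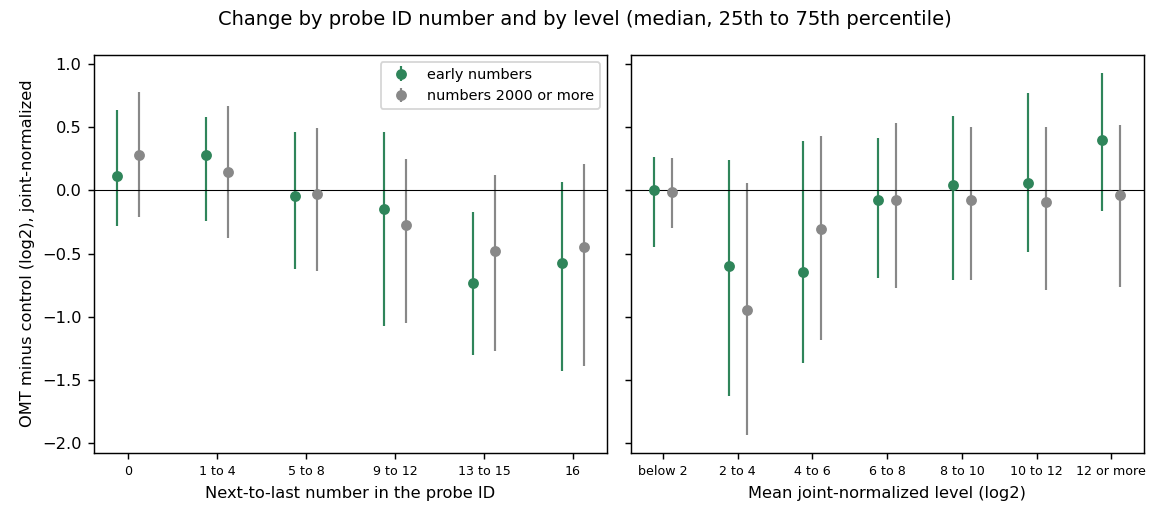
Median joint-normalized change (OMT minus control, log2, vertical axis) of early (green) and later (grey) circBase probes, by next-to-last ID number (left) and by mean level (right). Bars run from the 25th to the 75th percentile of probes. The medians of early probes are 0.11 and 0.28 for the 2 lowest classes of ID number and -0.74 and -0.57 for the 2 highest.

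The last number of the ID also divided the early probes. Where it was 100 or more (122 probes), the median joint-normalized change was -0.64, with 66 called lower and 17 higher. Where it was below 100 (356 probes), the median was -0.06, with 98 called lower and 77 higher. As deposited the medians were -1.37 and -0.79, with 93 lower and 5 higher in the first class and 213 lower and 19 higher in the second. Later probes gave joint-normalized medians of -0.24 and -0.11. Of these, 3810 were called lower and 2107 higher in the first class (10137 probes), and 8125 and 5526 in the second (24721 probes). Their deposited values gave 6741 lower and 531 higher, and 15040 and 1590. The shares called after joint normalization were 68.0% and 49.2% of early and 58.4% and 55.2% of later probes. On single arrays, the median level of the first class minus that of the second was 0.16, 0.08 and 0.17 in OMT and 0.51, 0.55 and 0.54 in controls. The gap was thus narrower on each OMT array, by 0.40 in the mean, while among later probes it differed by -0.07. This split was looked at after the data were seen, and no test is attached to it. It was not made within classes of the next-to-last number, so it is not shown to be separate from that number.

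By level, the early probes had their lowest median changes from 2 up to 6, below their median level of 6.30. At levels from 2 up to 4, 42 of 64 early probes were above DarkCorner on all 6 arrays. Medians were -0.60 at levels from 2 up to 4 (64 probes) and -0.65 from 4 up to 6 (103 probes), where later probes had -0.95 and -0.30. From 6 up to 8 the medians were -0.07 for both sets (139 early probes). Above that, the early medians were 0.05 from 8 up to 10 (88 probes) and 0.06 from 10 up to 12 (25 probes), against -0.07 and -0.09 among later probes. The share of early probes called after joint normalization was 10.9% below a level of 2. In the 5 ranges between levels 2 and 12 it was 35.9%, 63.1%, 59.7%, 67.0% and 76%, in order of level. In these 6 ranges 9.55%, 46.0%, 61.2%, 66.7%, 67.4% and 71.4% of later probes were called. Deposited medians were below 0 in every range for both sets. Those of early probes ran from -1.63 (4 up to 6) to -0.27 (below 2). Those of later probes ran from -1.77 (2 up to 4) to -0.13 (below 2).

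Position within the early numbers went little with change. In blocks of 200 numbers, holding 39 to 60 probes each, the median joint-normalized change ran from -0.41 (numbers from 1201) to 0.11 (numbers from 1801). Across all 478 probes Pearson's r between number and change was -0.03 and Spearman's rho -0.01. The highest block median of level was 7.26, for the 57 probes up to number 200, and the lowest 5.57, for the 39 probes from number 801.

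The levels of consecutive early numbers had a lower correlation than those of consecutive later numbers. Among 149 pairs of early probes whose numbers differ by 1, Pearson's r of the levels was 0.06, and among 13370 such pairs of later probes it was 0.61. The median absolute difference in level was 2.44 and 1.26 log2 units. For the joint-normalized change, r was 0.19 over the early pairs and 0.28 over the later ones, and neighbours in order whose numbers differ by 5 or more gave 0.05 (157 pairs) and 0.07 (8995 pairs). Of the 149 early pairs, 31 were called in the same direction and 18 in opposite directions. Early neighbours whose numbers differ by 2 to 4 gave 27 and 19 (171 pairs). Those that differ by 5 or more gave 24 and 19 (157 pairs). No such count is given for later pairs, so these counts do not show a trait of the early probes. The 2 concordant pairs named above, with changes near -3.2 and near 2.5, were thus not typical of consecutive numbers. Pairs share arrays, and a probe can belong to 2 pairs, so these values are descriptions.

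**Figure D5:**
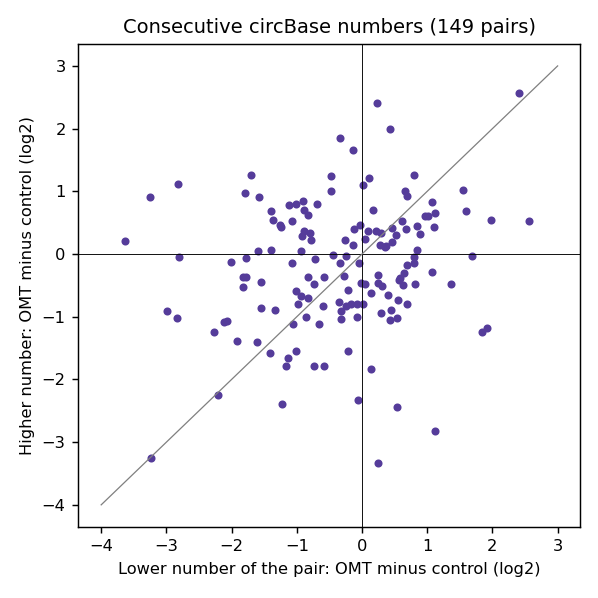
Joint-normalized change (OMT minus control, log2) of 149 pairs of early probes with consecutive circBase numbers, the lower number on the horizontal and the higher number on the vertical axis. The grey line marks equal changes. Pearson's r is 0.19, against 0.28 for consecutive later numbers. Of the pairs, 31 were called in the same direction and 18 in opposite directions. Early neighbours 5 or more apart gave 24 and 19 of 157 pairs, and no such count is given for later pairs.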

How the data were processed

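Agilent Feature Extraction (version not given in the sources used here) read the arrays, per the submitters' processing notes. The deposited values are log2 intensities that the authors normalized, by a method that no source used here names; base 2 was inferred from the range. Every column was assigned to its sample. Each array holds 175075 RNA probes and 68 control spots. No scanner file, flag or scan batch was used here.

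Each probe was tested two-sided for OMT against control in a linear model with a treatment term alone (lmFit, then eBayes; limma version 3.58.1, R version 4.3.3), and p-values were adjusted by Benjamini-Hochberg over all RNA probes. Joint normalization is limma's quantile normalization over 6 arrays. In simulated arrays of 175075 probes, 15% to 20% of 2-fold, 62.5% to 65% of 4-fold and 87.5% of 8-fold changes were recovered, with 5 false calls; only 200 probes changed there. Matched comparisons used combinations with at least 5 later probes and have no test.

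Named probes were the 8 largest falls and 8 largest rises (called, not overlapping and of one direction under both normalizations, above DarkCorner on all arrays of the higher group), the 5 brightest, the 3 nearest 0 at a level of 8 or more, and the edges of the numbering. No circBase number had several early probes, so that part of the rule named none. Members and rules were chosen with earlier results of these data known. Replicate numbers were not taken as pairs: the correlation between the deviations of arrays that share a number was 0.03, -0.11 and 0.01.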

Additional observations from a re-analysis of the deposited data

How the results depend on the processing

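The count of called early probes (330) was 221 to 340 under the 11 settings that keep all arrays, within 1.5 times. The split by direction moved with the scaling: 24 higher and 306 lower as deposited became 94 and 164 after joint normalization, 105 and 155 with the dimmer 50% also left out, 82 and 139 with joint normalization and the replicate block, and 138 and 166 with centring on the 75th percentile. Each of these other settings gave the groups one distribution or one percentile, and why the counts moved was not tested. Higher probes numbered 12 at an adjusted p below 0.01 and 10 at 2-fold or more, by construction of the stricter thresholds. Without 1 array, as deposited or jointly normalized, 15 to 106 were higher, 137 to 299 lower and 216 to 323 called in all. The replicate block alone, with numbers that do not pair the arrays, gave 16 higher and 274 lower, and for 0 of 3 OMT arrays was the same-numbered control array the best correlated.

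The matched change (-0.04) was -0.13 with matching on the next-to-last number alone and otherwise -0.07 to -0.02, without 1 array -0.07 to -0.02. The matched level difference (0.003) was 0.18 without matching and -0.40 against later numbers below 10000, and -0.005 to 0.01 without 1 array. The detection difference (1.78 percentage points) was 0.932 at 1 log2 unit above DarkCorner, -2.92 against later numbers below 10000, and 1.58 to 1.94 without 1 array. The cause of these moves was not tested. Using 1 probe per circRNA changed nothing, since each number had 1 early probe.

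Direction changed for 7 named probes under scalings other than the deposited one. After joint normalization, with or without the filter or block, hsa_circ_0001006_11_1018 stood at 0.46, hsa_circ_0000320_2_31 at 0.01 (0.0070) and hsa_circ_0001470_0_14 at 0.04 (0.041); hsa_circ_0002006_5_21 stood at 0.84, and hsa_circ_0001989_16_16, which the dimmer 50% includes, at 0.56 with or without the block. With centring, hsa_circ_0001006_11_1018 stood at 0.60, hsa_circ_0000320_2_31 at 0.19, hsa_circ_0001959_0_28 at 0.16, hsa_circ_0001470_0_14 at 0.22, hsa_circ_0002002_0_21 at 0.01 (0.0052), hsa_circ_0001989_16_16 at 0.51 and hsa_circ_0002006_5_21 at 0.69. The 8 falls kept direction and call in each refit run, and so did 7 of the 8 rises; they were picked for large changes on these arrays. Signal over background limits the dim probes: 55 early probes had a mean level below 2, of which 3 were above DarkCorner on all 6 arrays. Comparisons with later numbers below 10000, matching on the last number, raising to DarkCorner and joint normalization without 1 array were added after seeing the data.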
